A study of Mus musculus with 3 samples.

Results

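The region described here is the part of mouse chromosome 4 from 144500001 to 148000000 (mm9), and its members, chosen by position, were all listed FAIRE intervals with a midpoint inside it. It held 3191 of the 348759 intervals in the list. The region itself was selected on the density and coverage of these same intervals, so its counts and coverage are given as a description, without a test. The intervals come from wild type mouse embryonic stem cells of a 129Sv-C57Bl/6 background grown without feeders. The series comprised 3 samples in 3 groups: an input library of genomic DNA, FAIRE of cells kept for 16 h in DMSO (the solvent control), and FAIRE of cells kept for as long in 500 nM ICRF-193, an inhibitor of topoisomerase II catalysis. Each FAIRE title names replicates 1 and 2 together, so a group had 1 sample. The list names no sample for an interval, so no value below compares DMSO with ICRF-193, and none has a replicate error. The read depth is unknown.

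FAIRE isolates the DNA that formaldehyde leaves free of crosslinked protein, such as nucleosome-depleted promoters and enhancers. F-Seq, which the list is named after, smooths aligned reads into a density and lists the intervals where it exceeds a threshold. Distal mouse chromosome 4 is known for a cluster of KRAB zinc finger genes. Proteins of this family bind DNA through arrays of zinc fingers, and many recruit the corepressor TRIM28 to silence retrotransposons in embryonic stem cells. Such clusters grow by duplication of neighbouring genes, so their members can be nearly identical in sequence. Reads from nearly identical sequence are hard to place. The sources used here do not say how such reads were treated.

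The gene order around the cluster was read from the RefSeq gene table of GRCm38.p6. Since its build differs from that of the intervals, it was used for names and neighbours only, and no interval was assigned to a gene. On chromosome 4 the table lists 82 entries between Tnfrsf8, which encodes the receptor CD30, and Miip, which encodes an inhibitor of cell migration. Of these, 17 are protein-coding zinc finger genes, namely Rex2 and 16 with a Zfp symbol. Another 56 are pseudogenes, 6 of them of the Vmn2r family of vomeronasal receptors, which detect pheromones.

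RefSeq promoter sequences (GRCm38.p6, 250 bases before to 50 bases after a gene's start) show how alike these genes are around their starts. The rest of each gene was not compared. They are shown because the placement of short reads depends on how much of their sequence recurs. Promoters of 13 of the 17 zinc finger genes were matched by symbol. The 3 printed here, each 5' to 3' on its gene's strand, are the most similar. Capitals mark bases of Rex2 and Zfp979 that were aligned to no identical base of Zfp600.
Zfp600 (plus strand): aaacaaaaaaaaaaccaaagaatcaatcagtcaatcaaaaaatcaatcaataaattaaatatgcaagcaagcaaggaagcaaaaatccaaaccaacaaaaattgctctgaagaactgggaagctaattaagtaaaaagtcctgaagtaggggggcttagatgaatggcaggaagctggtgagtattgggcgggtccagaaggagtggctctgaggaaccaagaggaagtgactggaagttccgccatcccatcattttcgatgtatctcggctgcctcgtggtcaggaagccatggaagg
Rex2 (plus strand): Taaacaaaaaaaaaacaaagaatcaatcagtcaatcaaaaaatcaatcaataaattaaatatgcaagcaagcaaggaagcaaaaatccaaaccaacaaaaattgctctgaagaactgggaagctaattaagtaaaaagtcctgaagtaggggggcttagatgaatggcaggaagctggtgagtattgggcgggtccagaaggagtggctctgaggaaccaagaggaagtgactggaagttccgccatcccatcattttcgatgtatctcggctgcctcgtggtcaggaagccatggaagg
Zfp979 (minus strand): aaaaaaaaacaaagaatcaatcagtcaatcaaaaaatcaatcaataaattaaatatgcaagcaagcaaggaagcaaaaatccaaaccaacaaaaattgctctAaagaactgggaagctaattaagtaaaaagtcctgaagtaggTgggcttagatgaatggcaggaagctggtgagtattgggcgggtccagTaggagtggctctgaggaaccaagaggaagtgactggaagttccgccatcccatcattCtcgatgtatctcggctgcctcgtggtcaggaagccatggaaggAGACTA

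In a global alignment the Rex2 promoter was 99.3% identical to that of Zfp600, with an unbroken identical run of 285 of 300 bases. Zfp979, also known as Ssm1b, a modifier of transgene methylation in the mouse embryo, was 94.8% identical to Zfp600 with a longest shared run of 93 bases. It lies on the opposite strand. The promoters of Zfp980 (88.6%), Zfp982 (82.8%) and Zfp985 (81.7%) followed. Likeness was not limited to pairs with Zfp600: of all 91 pairs of promoters 21 were at least 80% identical, 16 of them without Zfp600. Zfp534 and Zfp988, for example, were 89.8% identical to each other and 72.2% and 77.0% identical to Zfp600. Of the 13 promoters compared with that of Zfp600, which include the predicted gene Gm13212, 9 were at least 70% identical. Zfp600, Zfp982 and the flanking gene Miip have several starts. For Zfp600 the start most like the other promoters was used, and for the others the start most like that of Zfp600. The lowest were Zfp933 (49.9%) and Zfp993 (45.2%), beside 50.3% for the flanking gene Miip and 47.1% for Tnfrsf8. Identity to Zfp600 within the cluster thus ranged from 45.2% to 99.3%.

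Most of the region's intervals lay in a dense block with sharp ends. The block, taken from the first to the last 20 kb bin that was at least 20% covered by intervals, ran from 144980001 to 147200000, or 2220 kb. It held 2918 intervals, 91.4% of the members, and intervals covered 33.7% of its bases. The left flank of 480 kb held 93 intervals and was 2.28% covered. The right flank of 800 kb held 180 intervals and was 2.85% covered. Density was 1314 intervals per Mb in the block, against 194 in the left flank and 225 in the right. For scale, the median of 687 other autosomal windows of 3.5 Mb was 415 intervals and 1.27% covered. All 687 held fewer intervals and less coverage than the region (3191 intervals, 22.3%), which is what it was chosen for.

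Both ends of the block were abrupt. The last 3 bins left of it were 0%, 3.29% and 2.74% covered, and the first 3 inside were 27.4%, 33.9% and 77.4% covered. At the right end the last 3 bins inside were 29.4%, 24.4% and 23.5% covered, and the next 3 were 0%, 6.58% and 2.60%. Coverage therefore rose from 2.74% to 27.4% between neighbouring bins on the left, and fell from 23.5% to 0% between neighbouring bins on the right. No bin of either flank exceeded 13.8%. The region's own limits fell in sparse sequence: its first member was a 10 bp interval at 144505903 to 144505912 (score 0.0133), and its last a 4 bp interval at 147997990 to 147997993 (score 0.0131). The nearest intervals outside lay at 144488126 to 144488466 (341 bp, score 0.0234) and 148000842 to 148001404 (563 bp, score 0.0280).

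**Figure D1:**
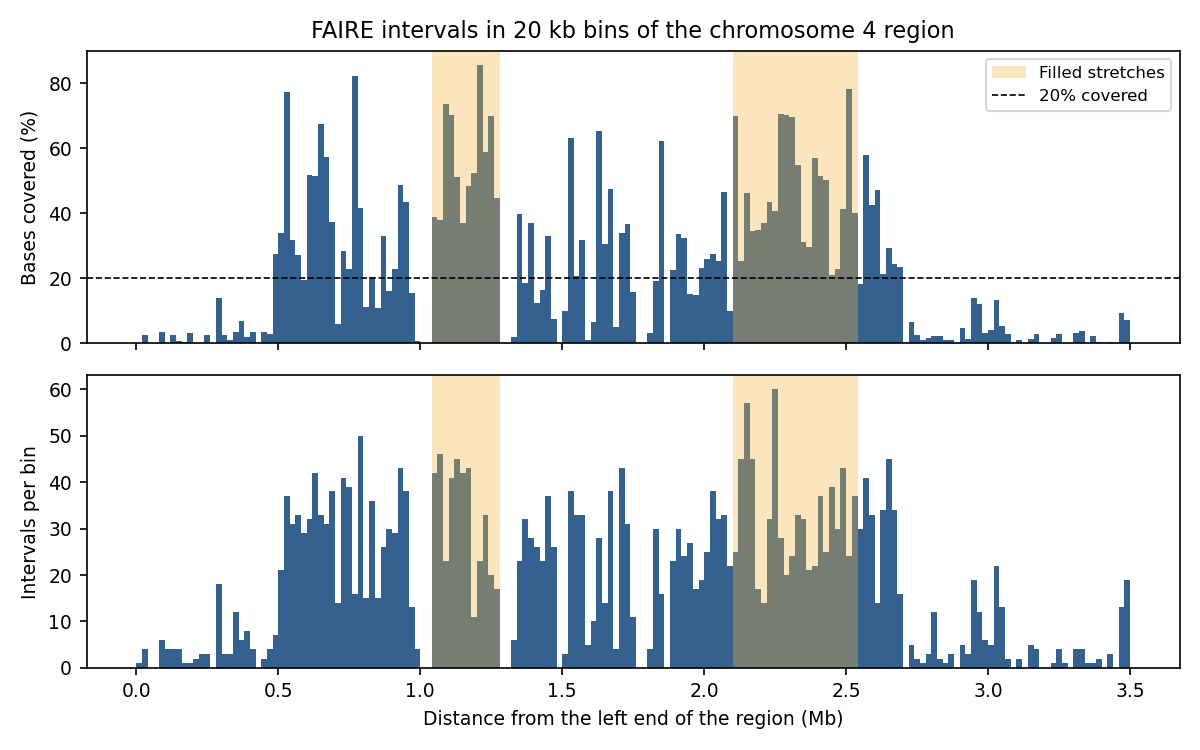
Bases covered by intervals (top, percent) and number of intervals by midpoint (bottom) in each 20 kb bin, against the distance from the left end of the region in Mb. Shading marks the filled stretches of 240 and 440 kb; the dense block stands between flanks in which no bin exceeds 13.8%, and 8 of its bins hold no interval.

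Within the block, most bins were filled. Of its 111 bins, 80 were at least 20% covered, 26 of them at least 50%. A further 23 were covered from 0.72% to 19.4%, and 8 held no interval. Outside the region 0.626% of 120582 autosomal bins were at least 20% covered, and 48.8% had no covered base. The bins past 20% formed 18 runs, of which 16 were 20 to 140 kb long. The other 2 met the length of at least 10 bins (200 kb) that defines a filled stretch. Several bins lay close to the limit of 20%: the nearest below it were 19.1% and 19.4% covered, and the nearest above it 20.4% and 20.8%.

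The first filled stretch, 145540001 to 145780000, was isolated on both sides. It held 386 intervals in 12 bins and was 55.8% covered. Its least covered bin, at 145640001 to 145660000, reached 36.9% with 42 intervals, and its most covered bin, at 145700001 to 145720000, reached 85.8% with 23 intervals. The 2 bins on its left and the 2 bins on its right held no interval at all. Inside the left edge coverage was 39.0%, 37.9% and 73.5%, and before the right edge it was 58.9%, 70.1% and 44.7%. Both end bins directly adjoined bins without an interval, and both were covered below the stretch's median bin of 51.7%.

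The second filled stretch, 146600001 to 147040000, had softer edges. It held 710 intervals in 22 bins and was 46.4% covered. Bin coverage ranged from 20.9% at 146940001 to 146960000 to 78.4% at 147000001 to 147020000, with a median of 42.4%. The first bin on its left was 10.0% covered, but the one before that was 46.5%. The first bin on its right was 18.3% covered and the next was 57.9%. Its limits were thus single bins under the threshold within a longer dense part. Shifting the bins by 10 kb gave stretches at 146710001 to 146950000 and 146970001 to 147190000. With a limit of 10% the dense part ran from 146380001 to 147200000, and with 30% it was reduced to 146640001 to 146860000. With 10 kb bins and at least 20 in a row, no stretch was found there. The first stretch was found under each of those settings, at 220 to 240 kb.

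Bins of high coverage could be made of many or of few intervals. The bin with the most intervals, 146740001 to 146760000, held 60 and was 40.7% covered, with no interval wider than 802 bp. The bin at 145260001 to 145280000 held 16 and was 82.3% covered, with 7387 bp in its widest interval. In the first filled stretch the bin with the fewest intervals (11, at 145680001 to 145700000) was 52.4% covered.

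Most empty bins lay in long empty stretches. The 4 longest stretches without an interval inside the block were all 50 to 60 kb long: 50474 bp at 145967129 to 146017602, 50762 bp at 145771362 to 145822123, 54431 bp at 145486629 to 145541059, and 59968 bp at 146256103 to 146316070. The next was 22070 bp at 146358603 to 146380672, and each of the others was under 13 kb. Of the 8 bins without an interval, 7 lay in the 4 longest and 1 in the next. The first filled stretch lay between 2 of these long empty stretches. Whether these stretches are gaps of the reference assembly was not tested, so they are not a measure of closed chromatin. The other 2 of the region's 5 longest lay in the flanks, at 147667694 to 147732497 (64804 bp) and 144524703 to 144582316 (57614 bp).

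Wide intervals were more frequent in the block than among the other autosomal intervals. The block was cut by bin coverage, which wide intervals raise, so their share is a description tied to that choice. Intervals of 1000 to 1999 bp made up 4.66% of the block and 0.317% of the rest. Those of at least 2000 bp made up 1.20% and 0.0591%. As a result, the block held 11.1% of all autosomal intervals of 1000 to 1999 bp (136) and 14.8% of those of at least 2000 bp (35). Very narrow intervals of 1 to 10 bp were as frequent as elsewhere, 30.4% against 30.9%. The classes between 11 and 199 bp were less frequent in the block, at 14.8% and 20.4% against 22.1% and 27.1%. Neither flank held an interval of 1000 bp or more.

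The score, the authors' deposited value per interval with an unstated scale, was similar at a given width. The block's median was higher at 51 to 199 bp, 0.0153 against 0.0149, and at 11 to 50 bp, 0.01335 against 0.01333, and lower in the other classes. For intervals of 200 to 499 bp the median was 0.0206 in the block and 0.0223 in the rest (interquartile ranges 0.0183 to 0.0241 and 0.0187 to 0.0280). At 500 to 999 bp it was 0.0281 against 0.0321, and at 1000 to 1999 bp 0.0397 against 0.0403. At 2000 bp or more it was 0.0556 against 0.0631. The interquartile ranges overlapped in every width class. High-score intervals, the top 10% of the list, made up 17.2% of the region against a median of 9.50% over other windows of the same length, where 14 of 686 windows were higher. The share of wide intervals, which is tied to the coverage used to cut the block, thus differed more from the rest than their scores did.

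**Figure D2:**
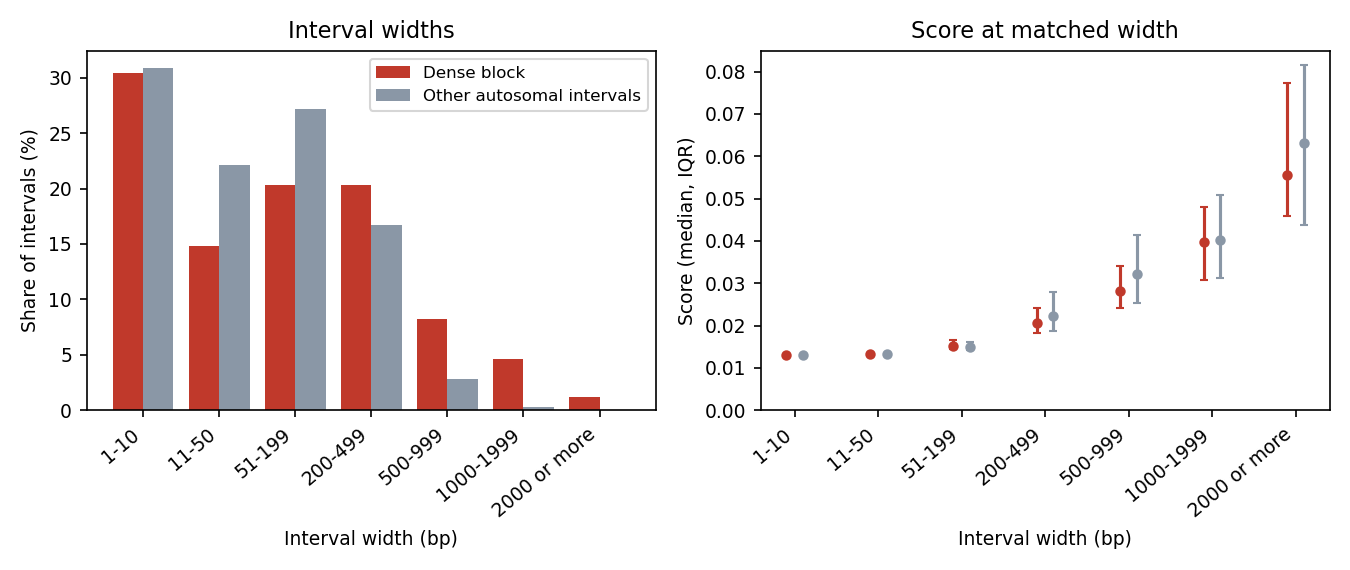
Left, share of intervals (percent) by width class in bp, for the dense block (red) and the other autosomal intervals (grey). Right, median score by width class with the interquartile range as bars. The block holds 1.20% of its intervals at 2000 bp or more, against 0.0591%, while the score ranges overlap in every class.

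The 5 highest-scoring intervals were spread along the block. The first, at 147009223 to 147012657 in the second filled stretch, was 3435 bp wide and scored 0.218, or 16.0 times the median score of the list. The second, at 145682553 to 145686213 in the first filled stretch, was 3661 bp wide and scored 0.153. The others were at 146346933 to 146352949 (6017 bp, score 0.125), 145261520 to 145268906 (7387 bp, score 0.116) and 146790208 to 146791922 (1715 bp, score 0.114). The first ranked 151 of all listed intervals by score. By width, 3 of the 5 widest lay in the second filled stretch: 146793340 to 146801308 (7969 bp), 146801498 to 146808634 (7137 bp) and 146605375 to 146611813 (6439 bp). The first 2 of these were neighbours, and with the high-scoring interval beside them they formed 1 region. The other 2 widest were the intervals of 7387 and 6017 bp named above.

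Intervals 1000 bp or wider were found all along the block, 171 in number, and held 41.0% of its covered bases. They made up 9.07% of intervals in the first filled stretch, 7.04% in the second and 4.09% in the part between the stretches. The filled stretches are defined by coverage, so this order is a description too. After intervals within 500 bp were joined, the block consisted of 614 joined regions, 662.5 bp wide at the median, and 19 of them were at least 10 kb wide. The widest, 145694990 to 145726147 in the first filled stretch, was 31.2 kb long, was made of 41 intervals and was 87.3% covered. In the second stretch 147006876 to 147026777 (19.9 kb) joined 26 intervals. By contrast, 146790208 to 146808634 (18.4 kb) joined 4 intervals that covered 97.1% of it. Both fragmented and nearly unbroken coverage thus occurred.

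Set beside the other 5 filled stretches of the autosomes, those of chromosome 4 were intermediate. High-score intervals made up 22.5% and 19.3% of the first and second stretch, against 8.55% in the stretch of chromosome 17 at 30580001 to 31060000, 24.8% and 22.7% in both stretches of chromosome 1, and 53.1% and 27.3% in both of chromosome 8. Wide intervals were frequent in the other stretches too: those of 200 bp or more made up 42.2% and 34.5% of the chromosome 4 stretches, against 44.5% and 46.6% on chromosome 1, 59.4% and 46.9% on chromosome 8 and 31.9% on chromosome 17. Density was 1608 and 1614 per Mb, against 2779 on chromosome 17 and 320 to 1355 on chromosomes 1 and 8. These are single stretches without replicates, and their differences were not tested.

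Spacing within the block was close by the median gap, and no repeat length stood out among lags beyond 20 kb. The median gap between neighbours was 89 bp, and 36.6% of gaps were 20 bp or less. Over the whole region the median gap was 96.5 bp, against 471 bp for the median window of the same length elsewhere. The short median gap goes with the density that the region was chosen for. Gaps of 20 bp or less made up 36.6% over the region and 33.2% in the median window, and 81 of 686 windows were higher. Neighbouring intervals of 1000 bp or more had midpoints a median of 4172 bp apart. To look for a period, the coverage profile in 200 bp steps was correlated with itself at each lag up to the midpoint of the block's length. Longer lags were not tried. Pearson's r was 0.43 at 1 kb, 0.26 at 5 kb and 0.12 at 10 kb. Beyond 20 kb the highest value was 0.11, at 31.8 kb, and the median over 5451 lags was -0.0057. None of the lags tried beyond 20 kb thus stood out as a repeat length over the whole block. Steps of 200 bp are too coarse for a period near the distance between neighbouring midpoints, a median of 367.5 bp. A repeat in only part of the block need not stand out either.

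Close repeats of small groups of intervals, within 5 bp, were also few. A recurring run was defined as 4 consecutive intervals whose widths and gaps all recur elsewhere in the region within 5 bp, in the same or the mirrored order. Such runs contained 100 of the 3191 intervals, or 3.13%. In other windows of the same length the share was 0.502% over all intervals, with 8.21% and 2.48% in the 2 windows with most intervals, on chromosomes 14 and 17. A window with more intervals has more possible matches, so these shares are not like for like. The runs were made of very short intervals: the median run spanned 38.5 bp, the longest 92 bp, and the widest interval in any was 39 bp. A tolerance of 5 bp is large beside lengths this short, so a match does not show a copied pattern. The longest, a mirrored pair at 146048313 to 146048399 and 147153472 to 147153563, was of this kind. So were the next, at 146035191 to 146035264 with 146751853 to 146751936, and 145961931 to 145961995 with 146205717 to 146205773. The remaining pair of the 5 longest shared the run at 145434542 to 145434588, matched at 145613550 to 145613583 and at 145930278 to 145930317. With intervals under 20 bp left out, no recurring run remained.

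A repeat of a different kind appeared when longer profiles were compared. Each 40 kb window that was at least 20% covered and had no empty stretch over 10 kb was correlated with every other such window of the region, in both orders. Of 154 windows, 20 (13.0%) had a partner with Pearson's r of 0.7 or more, all of them in the same order. In other autosomal windows of 3.5 Mb, 2.14% of 936 windows had such a partner. Those 936 came from 154 windows of 3.5 Mb, with at most 54 in any, and each was compared only within its own. They had fewer possible partners than the region's windows, so the 2 shares are not like for like. Of the 20 windows, 17 formed 1 pair of stretches. The stretch at 145830001 to 145970000 matched the stretch at 146375361 to 146515360, at a distance of 545360 bp. Windows of this pair had r of 0.82 to 0.90 with each other. Their best partners elsewhere on the autosomes and chromosome X reached 0.63 at most. The remaining 3 windows linked 145230001 to 145270000 with 146315601 to 146355600 (r = 0.70), and 145350001 to 145390000 with 146216401 to 146256400 (r = 0.71, and 0.72 when searched from the second). Over all 154 windows the median best r was 0.502 within the region and 0.504 elsewhere, where more windows were searched. Of the 154, 62 had their better partner within the region, and 2 reached r of 0.7 elsewhere. Values near 0.7 were thus not particular to the region.

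**Figure D3:**
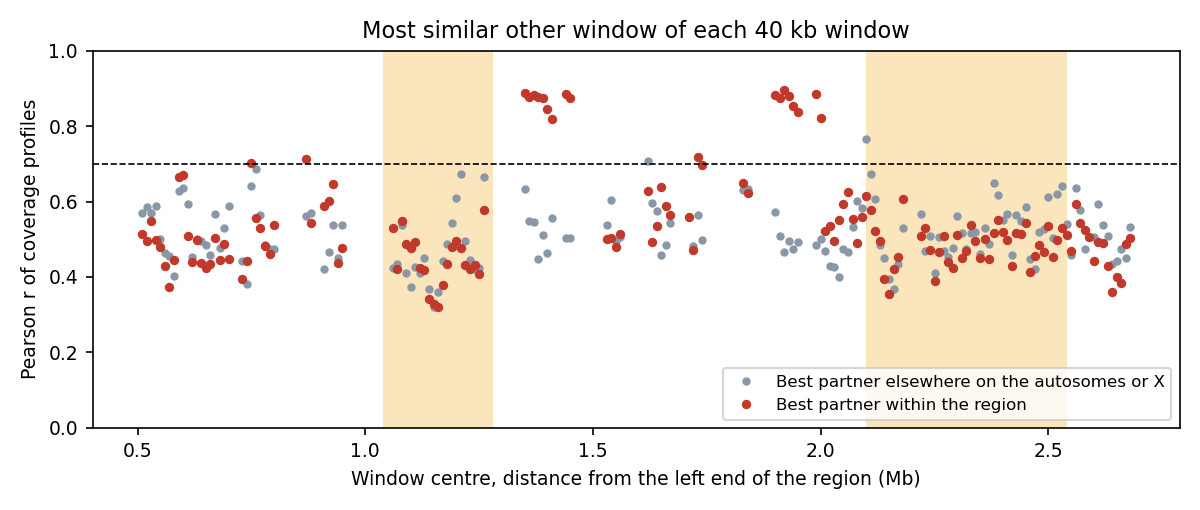
Pearson's r between each 40 kb window and its most similar other window within the region (red) or elsewhere on the autosomes and X (grey), against the distance of the window centre from the left end of the region in Mb. Shading marks the filled stretches, the dashed line r = 0.7; the group of red points between 0.82 and 0.90 is the matching pair.

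The matching stretches shared most of their wide intervals. Each was 140 kb long, with 197 intervals (23.7% covered) in the first and 161 (23.4% covered) in the second. After a shift of 545360 bp they shared 27.1 kb, 69.95% of the bases covered in either. Over 32562 other positions of the first stretch along the region, sparse flanks included, the median was 12.4% and the highest 34.2%. The pair was picked by the likeness of its profiles, and the shift was set where the most bases were shared. A high shared part follows from that choice and is given as a description. All 57 intervals of at least 200 bp in the first stretch overlapped an interval of the second, and 49 of 50 did in the other direction. Of intervals up to 10 bp, 35 of 69 in the first and 20 of 46 in the second overlapped an interval of the other. Any shared base counted as an overlap, which wide intervals reach more easily, so wide and narrow shares are not like for like. Neither share was counted at other shifts.

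The scores of matched intervals were close, and their edges less so. Of 41 reciprocal pairs with both intervals at least 200 bp wide, the starts differed by a median of 27 bp (up to 504 bp) and the ends by 34 bp (up to 638 bp). Within 20 bp of each other were 18 of the starts and 14 of the ends. The score of the second was 1.05 times that of the first at the median, with a range of 0.81 to 1.40. Over all 83 reciprocal pairs, narrower ones included, the range was 0.72 to 1.40. Across the 41 wide pairs Pearson's r of the scores was 0.94 and Spearman's rho 0.75. Both values are a description, since the pairs come from the same list and whether they share reads was not tested. Pearson's r gives most weight to the highest-scoring pairs and was not computed without them. The highest-scoring pair was 145956903 to 145957533 (631 bp, score 0.0725) and 146502262 to 146502924 (663 bp, score 0.0716). Next came 145854797 to 145855704 (908 bp, score 0.0452) and 146400175 to 146401066 (892 bp, score 0.0558). A wide pair at 145892355 to 145893679 and 146437685 to 146439014 measured 1325 and 1330 bp.

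In 10 kb steps the shared part of covered bases was 34.5% to 84.6% across the pair. Beyond the pair 1 of the stretches had no covered base in the next 10 kb on either side, so how far the likeness extends could not be measured. On the right, the first stretch met the empty 50474 bp, while at the shifted position intervals covered 22.8% to 25.5% of the next 30 kb. On the left, the next 10 kb were 1.68% covered beside the first stretch and 0% at the shifted position, and the empty 50762 bp lay just beyond in the first. The first stretch thus lay between 2 long empty stretches, and the second continued into covered sequence on the right.

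**Figure D4:**
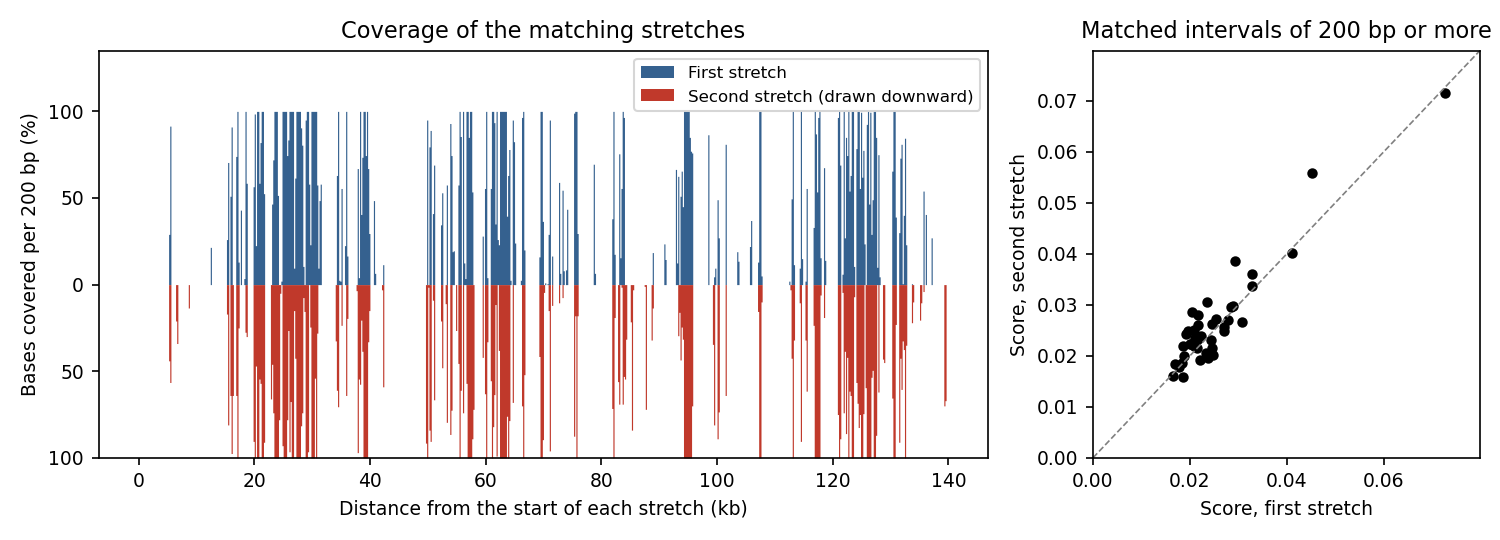
Left, bases covered per 200 bp (percent) along the matching stretches, the first drawn upward and the second downward, against the distance from the start of each in kb. Right, scores of the 41 matched intervals of at least 200 bp, with the line of equality dashed; the ratio of second to first ranges from 0.81 to 1.40.

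With windows assigned by their centre, the filled stretches had no such partner. The best r was at most 0.58 over 21 windows of the first filled stretch (median 0.43), and at most 0.61 over 41 windows of the second (median 0.49) within the region. Elsewhere on the autosomes and chromosome X, 1 window of the second filled stretch reached 0.76 with a window starting at 3083601 on chromosome 11. That window, 146580001 to 146620000, begins before the stretch does. No window of either filled stretch thus reached r of 0.7 with another window of the region. Of the 3.5 Mb windows elsewhere, that of chromosome 17 from 28000001 offered the most 40 kb windows, and 0 of 54 had a partner. The 2 with most partners had 10 of 25 on chromosome 8 from 17500001, and 6 of 46 on chromosome 14 from 3500001. Whether like sequence at the matching stretches placed the same reads in both, or each has its own open sites, was not tested.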

How the data were processed

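The list of the whole series was the only processed file used. Per the submitters' processing notes, reads were aligned to mm9 with Bowtie, whose version is not given. F-Seq is named by the deposited list. How it was run, how reads were filtered, whether the input was subtracted and which samples lie behind it were not given in the sources used here. Each score was used as the authors deposited it, to rank, filter and describe intervals, and its scale is unknown. Starts count from 0 in the list and are printed counted from 1. The region, members and lists were chosen with earlier results of these data known. The planned rule ranked zinc finger genes by protein, and protein sequences were not used here, so 10 of them were named by promoter likeness after the values were seen. Named intervals followed a written rule: the 5 highest scores, 5 widest, 5 longest empty stretches and 5 longest recurring runs. The comparison of 40 kb profiles (200 bp steps, windows every 10 kb) was added after seeing the data. The run and profile procedures were tested on simulated intervals. Other windows were 687 of 3.5 Mb on the 19 autosomes. Python 3.11.15, numpy 2.4.6, pandas 2.3.3, matplotlib 3.10.9 and Biopython 1.88 (global alignment; match 1, mismatch -1, gap opening -2, extension -0.5) were used. No p-value was computed.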

Additional observations from a re-analysis of the deposited data

How the results depend on the processing

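The counts moved with the interval filter. The region held 1800 intervals at or above the list's median score, 549 in the top 10% by score, and 1069 when only those of 200 bp or more were kept, against 3191. Joining neighbours up to 500 bp apart left 754. Coverage was 21.9%, 14.4% and 19.5% under the first 3 of these, against 22.3%. The number of filled stretches was 1 with 10 kb bins and 4 with a limit of 10%, and otherwise 2 or 3. Intervals in recurring runs made up 20.9% with a tolerance of 20 bp. They made up 0% with a tolerance of 1 bp, with runs of 6, at or above the median score, or with a minimum width of 20 bp. Settings for the 40 kb profiles were added after seeing the data. The share of windows with a partner was 23.6% with 20 kb windows, 7.94% with 80 kb windows and 20.8% at r of 0.6, against 6.00%, 0.22% and 4.81% in other windows. These shares again depend on how many windows were available to match. The longest match stayed at a distance of about 545 kb in each of the 6 added settings except 20 kb windows. No paired analysis was possible because the list names no sample. No replicate could be left out, and the unknown depth limits what an empty stretch can show.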
